A study of Mus musculus with 24 samples.

Results

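The rod phototransduction cascade is followed here through 9 genes, chosen by symbol for their known place in the cascade. No measured value entered that rule, but earlier results of these data were known when the genes were chosen. They are the transducin subunits Gnat1, Gnb1 and Gngt1 and the phosphodiesterase subunits Pde6a, Pde6b and Pde6g. The others are the channel subunits Cnga1 and Cngb1, and the arrestin Sag. All 9 were found among the 33846 genes of the deposited table, and all 9 passed the filter on low counts that left 16792 genes for testing. Polyadenylated RNA was sequenced from 24 libraries of mouse retinal organoids, which are balls of retinal tissue grown from embryonic stem cells (ESCs). SSCi organoids stayed whole in still medium (static suspension culture, intact). For the other cultures the optic cups were cut out at D10, and then either stayed in still medium (SSCd, dissected) or went into a rotating-wall bioreactor (RWB), a slowly turning vessel. RWB was sampled at D18 (2 libraries), D22 (3) and D25 (3), SSCd at D18, D22 and D28 (3 each), and SSCi at D18 (2), D25 (2) and D32 (3), where D counts days of differentiation.

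All groups were grown with 9-cis retinal, taurine and IGF1 in the medium. A richer medium with serum, B27 and amino acids began at D18 for both dissected cultures and at D26 for SSCi, so the later SSCi step spans a change of medium. The ESCs came from Nrl-GFP transgenic mice and from a second clone, R1, and the labels do not say which sample came from which. Nrl-GFP is a reporter that marks rods. The submitters call repeated experiments biological replicates. A bulk library holds all cells of its organoids, so fewer rods and less RNA per rod cannot be told apart in any value below.

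In rods, light activates a visual pigment, which switches on the G protein transducin. Transducin releases the brake on the phosphodiesterase PDE6, PDE6 destroys cyclic GMP, and the cyclic GMP-gated channel of the outer segment closes. Arrestin then binds the activated pigment and ends its signalling. Cones run the same cascade with paralogous parts, and in developing mouse retina rods are born before their outer segments and this machinery are built.

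Total estimated counts were 13284632 to 21604446 per library. In 4 libraries, replicate 1 of RWB D22, RWB D25, SSCd D18 and SSCd D22, 8.26% to 13.1% of counts were mitochondrial, against 2.46% to 5.76% in the other 20. In the same 4 libraries genes with transcripts under 1 kb stood above their group, with a median log2 deviation of 0.21 to 0.44. Mesenchyme markers (5 genes) summed to 6223 CPM in SSCi D18 replicate 1 and to 22.8 CPM in its partner. Rod markers outside the cascade (7 genes, among them Nrl, Nr2e3 and Prph2) summed to 44.7 to 181 CPM at D18 and to 2647 to 8923 CPM on the last days, which checks the label of retinal tissue with rods. Markers of cycling cells (4 genes) summed to 1278 to 2059 CPM at D18 and to 50.02 to 241 CPM on the last days. CPM here are library-size-normalized counts, scaled by edgeR's TMM factors. The part of these library differences in the results was not tested, beyond the values given without those libraries.

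On GRCm38, in the GENCODE M21 annotation, Gnat1 (ENSMUSG00000034837.12) lies on chr9:107674474-107679712, minus strand. Gnb1 (ENSMUSG00000029064.15) lies on chr4:155491361-155559269, plus strand, and Gngt1 (ENSMUSG00000029663.10) on chr6:3993792-3997436, plus strand. Pde6a (ENSMUSG00000024575.15) lies on chromosome 18. Pde6b (ENSMUSG00000029491.7) lies on chr5:108388391-108432397, plus strand, and Pde6g (ENSMUSG00000025386.2) on chr11:120447605-120453500, minus strand. Cnga1 (ENSMUSG00000067220.12) lies on chr5:72603696-72644275, minus strand, Cngb1 (ENSMUSG00000031789.17) on chr8:95239045-95306585, minus strand, and Sag (ENSMUSG00000056055.13) on chr1:87803680-87845158, plus strand. All 9 are annotated as protein-coding, and they share no chromosome except for Pde6b and Cnga1 on chromosome 5. A processed pseudogene, Rps2-ps10, overlaps Pde6a on the opposite strand and reached 46.1 CPM, and Gm5297 overlaps Cnga1 on its own strand and reached 1.26 CPM.

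RefSeq promoter windows (GRCm38.p6) were found for 6 of the 9 genes: Gnb1, Gngt1, Pde6b, Cnga1, Cngb1 and Sag. The 250 bases before each start were searched on both strands for TAATCC, a core bound by the photoreceptor homeodomain factor CRX, and for TGCTGA, a short site bound by the rod factor NRL. The 3 windows shown here overlap no annotated exon, and hold the matches of the gene furthest along by the middle day (Sag), of the gene called lower in RWB than in SSCd both at D22 and on the last days (Pde6b) and of the gene with more than 1 CRX-type match (Cngb1). Matches are in capitals and the rest in lower case, each 5′ to 3′ on the gene's own strand.

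Sag, chr1:87803430-87803679, plus strand: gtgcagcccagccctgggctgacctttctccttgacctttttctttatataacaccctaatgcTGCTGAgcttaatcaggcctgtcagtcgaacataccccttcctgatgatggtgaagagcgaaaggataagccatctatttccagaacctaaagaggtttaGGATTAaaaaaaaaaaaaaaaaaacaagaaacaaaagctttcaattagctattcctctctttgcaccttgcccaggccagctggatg

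Pde6b, chr5:108388123-108388372, plus strand: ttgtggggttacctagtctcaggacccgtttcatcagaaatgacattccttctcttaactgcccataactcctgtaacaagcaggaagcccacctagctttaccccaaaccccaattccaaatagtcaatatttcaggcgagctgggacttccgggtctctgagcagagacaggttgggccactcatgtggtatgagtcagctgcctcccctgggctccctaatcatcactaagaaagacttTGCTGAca

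Cngb1, chr8:95306586-95306835, minus strand: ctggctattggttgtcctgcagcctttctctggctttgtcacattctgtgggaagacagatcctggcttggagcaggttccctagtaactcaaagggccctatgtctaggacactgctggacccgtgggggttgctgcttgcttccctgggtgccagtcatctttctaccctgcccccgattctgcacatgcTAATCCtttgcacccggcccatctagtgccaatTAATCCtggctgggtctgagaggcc

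The Sag window holds GGATTA, the reverse complement of the CRX-type core, from base -87 to -82, and TGCTGA from -187 to -182, counting the base before the start as -1. Pde6b has TGCTGA from -8 to -3 and no CRX-type core. Cngb1 has TAATCC from -58 to -53 and again from -25 to -20. Of the windows not printed, Gngt1 has GGATTA from -44 to -39 and Cnga1 has TAATCC from -228 to -223, while Gnb1, the subunit used by many cell types, has neither. Of 32851 promoter windows of this length, 6.3% hold the CRX-type core, 16.1% the NRL-type site and 0.96% both. A match is a description of the letters and not of binding.

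At D18 8 of the 9 genes, all but Gnb1, stood at 6.17% or less of their highest group mean in every culture. Some were present all the same: in SSCd D18 Gngt1 had a mean of 47.2 CPM and Sag of 20.7. By the next day sampled Sag, Pde6b, Pde6g, Pde6a, Gngt1 and both channel genes had been called higher in all 3 cultures, and Gnat1 in none by edgeR. Gnat1 then rose in the later step in all 3 cultures. The values follow by role.

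**Figure D1:**
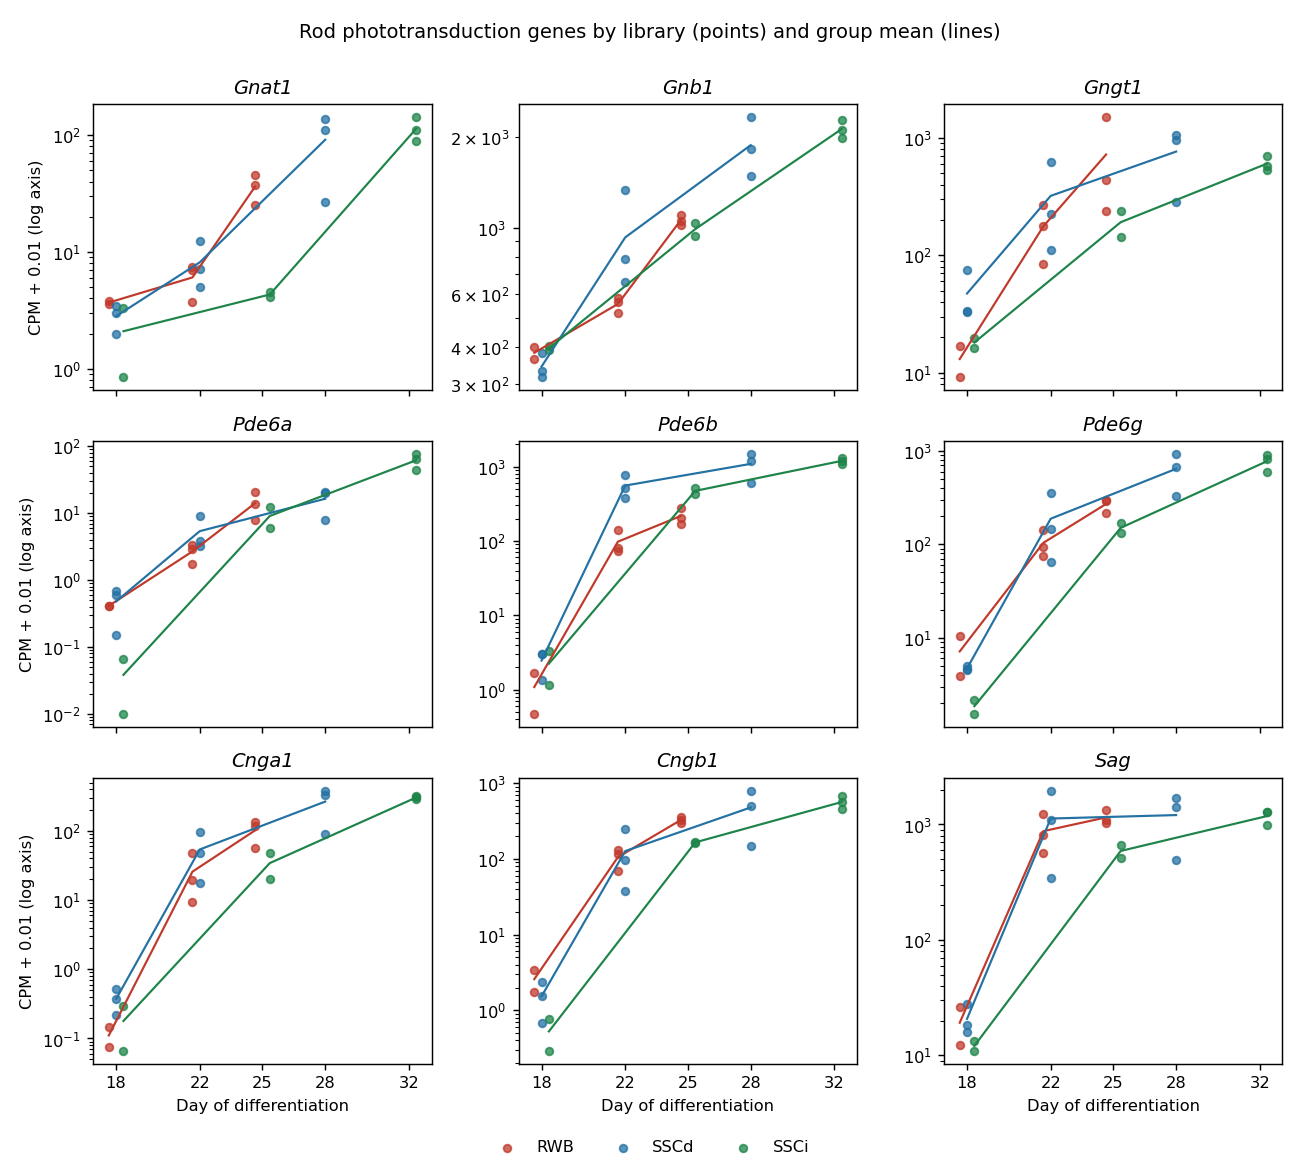
CPM of the 9 genes in each of the 24 libraries (points, log axis, 0.01 added) against the day of differentiation, with group means joined by lines and cultures set slightly apart on the x axis. Most genes climb steeply after D18, Gnat1 climbs later, and the RWB points of Pde6b lie below its SSCd points at D22.

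Gnat1, the transducin alpha subunit that carries the signal from pigment to PDE6, was at 3.79 and 3.58 CPM in RWB D18, at 7.01, 7.39 and 3.74 in RWB D22, and at 25.4, 45.8 and 37.7 in RWB D25. In SSCd it was at 3.46, 1.98 and 3.00 CPM at D18, at 12.3, 7.18 and 4.96 at D22, and at 137, 110 and 26.7 at D28. In SSCi it was at 0.844 and 3.33 CPM at D18, at 4.51 and 4.12 at D25, and at 142, 88.9 and 110 at D32. The middle libraries overlapped those of D18 in RWB and lay above them in SSCd and SSCi, and the last-day libraries lay above both in every culture. The first step was not called in RWB (log2 fold change 0.71, SE 0.58, edgeR adjusted p = 0.496), SSCd (1.54, SE 0.52, adjusted p = 0.0597) or SSCi (1.07, SE 0.65, adjusted p = 0.279). The second step was called in each, at 2.59 (SE 0.51, edgeR adjusted p = 0.00428) in RWB, 3.49 (SE 0.52, adjusted p = 0.000337) in SSCd and 4.71 (SE 0.66, adjusted p = 0.000172) in SSCi. In SSCd the first step was also called by DESeq2 (1.52, adjusted p = 0.0187), by edgeR with only the groups compared (1.53, adjusted p = 0.0463) or without D22 replicate 3 (1.80, adjusted p = 0.0455) and on sums of transcript counts (2.41, adjusted p = 0.0106). These are values of the whole gene. Its full coding transcript alone did rise in the first step, from few counts at D18. The mean went from 0.223 to 6.01 CPM in RWB, from 0.077 to 5.43 in SSCd and from 0.367 to 1.86 in SSCi. That rise was not tested.

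Gnb1, the beta subunit that rods share with many other cells, was already present at D18, at 366 and 398 CPM in RWB, at 317, 383 and 331 in SSCd and at 402 and 389 in SSCi. On the last days it was at 1048, 1102 and 1020 CPM in RWB, at 2330, 1834 and 1483 in SSCd and at 2282, 1985 and 2123 in SSCi. No last-day library overlapped a D18 library of its culture, and the change was spread over both steps. In RWB the first step, from a mean of 382 to 556 CPM, was not called (0.54, SE 0.24, edgeR adjusted p = 0.163). The steps called were RWB D22 to D25 (0.93, edgeR adjusted p = 0.0129), SSCd D18 to D22 (1.43, adjusted p = 0.000182) and D22 to D28 (1.02, adjusted p = 0.00476), and SSCi D18 to D25 (1.32, adjusted p = 0.00162) and D25 to D32 (1.11, adjusted p = 0.00651). The RWB call was lost without D22 replicate 2 (0.94, adjusted p = 0.0508) or replicate 3 (0.88, adjusted p = 0.0567) and with only the groups compared (0.92, adjusted p = 0.0959). The later SSCi call was lost without D25 replicate 1 (1.12, adjusted p = 0.0675) or replicate 2 (1.04, adjusted p = 0.123).

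Gngt1, the rod gamma subunit that anchors transducin to the membrane, was at 16.9 and 9.18 CPM in RWB D18, at 268, 178 and 83.6 in D22 and at 1496, 434 and 237 in D25. In SSCd it was at 75.5, 33.2 and 32.9 CPM at D18, at 626, 226 and 110 at D22, and at 963, 1050 and 282 at D28. In SSCi it was at 16.2 and 19.9 CPM, then 240 and 142, then 702, 536 and 575. Its replicates were uneven in RWB and SSCd, and in each of the 4 libraries of high mitochondrial share it was the highest of its group. Its main transcript has 1183 bases, which is above the 1 kb limit of the short genes described earlier. Gngt1 rose in the first step in RWB (3.76, SE 0.87, edgeR adjusted p = 0.00844), SSCd (2.76, SE 0.70, adjusted p = 0.0122) and SSCi (3.41, SE 0.88, adjusted p = 0.0101). These calls were lost in RWB without D18 replicate 2 (3.37, adjusted p = 0.155), in SSCd without D22 replicate 1 (1.84, adjusted p = 0.104) and in SSCi without D18 replicate 1 (3.27, adjusted p = 0.107). They were also lost in SSCd without D18 replicate 2 (adjusted p = 0.0688) or 3 (adjusted p = 0.0589) and with only the groups compared (adjusted p = 0.0533), and in SSCi without D18 replicate 2 (adjusted p = 0.0533) or D25 replicate 1 (adjusted p = 0.0528). The second steps, at 2.03, 1.26 and 1.66, were not called, although with the 4 libraries left out the SSCd step was (2.17, edgeR adjusted p = 0.0206).

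Pde6b, the catalytic beta subunit of rod phosphodiesterase, went from 0.465 and 1.69 CPM in RWB D18 to 73.0, 140 and 80.0 in D22 and 168, 279 and 202 in D25. In SSCd it went from 3.02, 1.36 and 3.00 CPM to 775, 512 and 379 and then to 1460, 1202 and 597. In SSCi it went from 3.33 and 1.13 CPM to 516 and 426 and then to 1301, 1080 and 1194. The D22 libraries of RWB all lay below those of SSCd, and so did the last-day libraries. Pde6b rose in the first step by 6.498 (SE 0.65, edgeR adjusted p = 6.47e-06) in RWB, 7.83 (SE 0.55, adjusted p = 7.05e-08) in SSCd and 7.70 (SE 0.67, adjusted p = 9.35e-07) in SSCi. None of the second steps, at 1.15, 0.97 and 1.34, was called by edgeR over all groups. With only the groups compared edgeR called that of SSCi (1.35, adjusted p = 0.000163). DESeq2 called those of RWB (1.15, adjusted p = 0.0498) and SSCi (1.35, adjusted p = 0.0289).

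Pde6a, the catalytic alpha subunit that pairs with Pde6b in the enzyme, came on later than Pde6b. It was at 0.398 and 0.405 CPM in RWB D18, at 1.75, 3.39 and 2.87 in D22 and at 7.93, 13.6 and 20.7 in D25. In SSCd it was at 0.588, 0.678 and 0.140 CPM, then 9.01, 3.85 and 3.24, then 21.0, 20.3 and 7.93. In SSCi it had 0 and 0.0565 CPM at D18, 12.2 and 5.94 at D25, and 75.7, 44.3 and 65.2 at D32. Only the SSCi D32 libraries passed 21.0 CPM. In SSCd the D22 and D28 libraries overlapped. The call of that step, given next, was lost without D22 replicate 2 or 3 or D28 replicate 1 or 2. Pde6a rose in both steps in RWB (2.72, edgeR adjusted p = 0.0164, and 2.39, adjusted p = 0.00629), in SSCd (3.47, adjusted p = 0.000532, and 1.62, adjusted p = 0.0402) and in SSCi, where the first step was called (adjusted p = 2.4e-05) with no fold given because the D18 libraries hold 1 count in all, and the second was 2.77 (adjusted p = 0.00372). The first call in RWB was lost without D18 replicate 1 (2.73, adjusted p = 0.0989) or replicate 2 (2.71, adjusted p = 0.166), and the second in SSCi without D25 replicate 2 (2.34, adjusted p = 0.12).

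Pde6g, the inhibitory gamma subunit that holds PDE6 off in the dark, was at 10.4 and 3.85 CPM in RWB D18, at 93.3, 143 and 75.6 in D22 and at 219, 295 and 299 in D25. In SSCd it was at 5.00, 4.46 and 4.604 CPM, then 351, 148 and 65.4, then 920, 682 and 331. In SSCi it was at 2.16 and 1.53 CPM, then 168 and 133, then 905, 599 and 829. Every last-day library of SSCd and SSCi was above every RWB library. The first step was called in RWB (3.86, SE 0.61, edgeR adjusted p = 0.000464), SSCd (5.33, SE 0.55, adjusted p = 3.54e-06) and SSCi (6.34, SE 0.72, adjusted p = 9.49e-06). The second was called in SSCd (1.78, adjusted p = 0.0201) and SSCi (2.37, adjusted p = 0.00926).

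Cnga1, the alpha subunit that forms the channel pore, was at 0.0664 and 0.135 CPM in RWB D18, which is 3 counts in all, so no fold is given from it. It was at 19.7, 48.1 and 9.35 CPM in RWB D22 and at 133, 117 and 56.5 in D25. In SSCd it was at 0.368, 0.508 and 0.209 CPM, then 96.0, 48.2 and 17.4, then 374, 332 and 89.3, and in SSCi at 0.281 and 0.0565, then 48.2 and 20.3, then 308, 289 and 315. The D22 libraries of RWB and of SSCd spread widely and those of SSCi D32 lay close together. Cnga1 rose in the first step in SSCd (7.15, SE 0.87, edgeR adjusted p = 2.5e-05) and SSCi (7.53, SE 1.13, adjusted p = 0.000165), and was called in RWB. The second step was called in SSCd (2.30, adjusted p = 0.0234) and SSCi (3.15, adjusted p = 0.0115). The latter rests on 2 D25 libraries (2.66 without replicate 2). In SSCd the D22 and D28 libraries overlapped. That call was lost without D22 replicate 2 (2.23, adjusted p = 0.109) or 3 (1.88, adjusted p = 0.0731). It was also lost without D28 replicate 1 (1.97, adjusted p = 0.0879) or 2 (2.11, adjusted p = 0.073).

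Cngb1, the channel's beta subunit, was at 3.39 and 1.75 CPM in RWB D18, at 132, 116 and 69.2 in D22 and at 355, 298 and 326 in D25. In SSCd it was at 2.35, 0.678 and 1.54 CPM, then 248, 96.4 and 37.7, then 786, 503 and 150. In SSCi it was at 0.750 and 0.282 CPM, then 162 and 169, then 677, 458 and 561. Its replicates were close in RWB D25 and SSCi D25 and far apart in SSCd. Cngb1 rose in the first step by 5.36 (SE 0.80, edgeR adjusted p = 0.000327) in RWB, 6.41 (SE 0.71, adjusted p = 8.74e-06) in SSCd and 8.27 (SE 0.97, adjusted p = 1.3e-05) in SSCi, and in the second step in SSCd (1.92, adjusted p = 0.0372).

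Sag, rod arrestin, was close to its final level by the middle day in RWB and SSCd. It went from 26.03 and 12.3 CPM in RWB D18 to 818, 1237 and 571 in D22 and 1100, 1334 and 1020 in D25. In SSCd it went from 27.9, 18.2 and 15.97 CPM to 1940, 1094 and 342 and then to 1697, 1427 and 494, and in SSCi from 13.2 and 10.96 to 668 and 511 and then to 1287, 981 and 1280. The middle and last days overlap in RWB and SSCd. Sag rose in the first step by 5.51 (SE 0.69, edgeR adjusted p = 6e-05) in RWB, 5.76 (SE 0.58, adjusted p = 2.84e-06) in SSCd and 5.61 (SE 0.71, adjusted p = 2.76e-05) in SSCi. The second steps were 0.40 (adjusted p = 0.725), 0.10 (adjusted p = 0.928) and 1.00 (adjusted p = 0.309), none of them called.

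Counted over the 9 genes, 7 rose from D18 to D22 in RWB (median log2 fold change of the 9, 3.86; over all genes 0.01), where 6.01% of all genes tested were called higher. In SSCd 8 rose over the same days (median 5.33; all genes 0.01), against 7.23% of all genes, and in SSCi 8 rose from D18 to D25 (median 6.34; all genes -0.06), against 8.89%. In the later step 3 of 9 rose in RWB (median 1.63; all genes 0.03), against 1.97% of all genes, 6 in SSCd (median 1.62; all genes 0.00), against 3.0%, and 5 in SSCi (median 1.77; all genes 0.00), against 3.72%. None was called lower in any step by edgeR. Successive steps share their middle libraries.

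**Figure D2:**
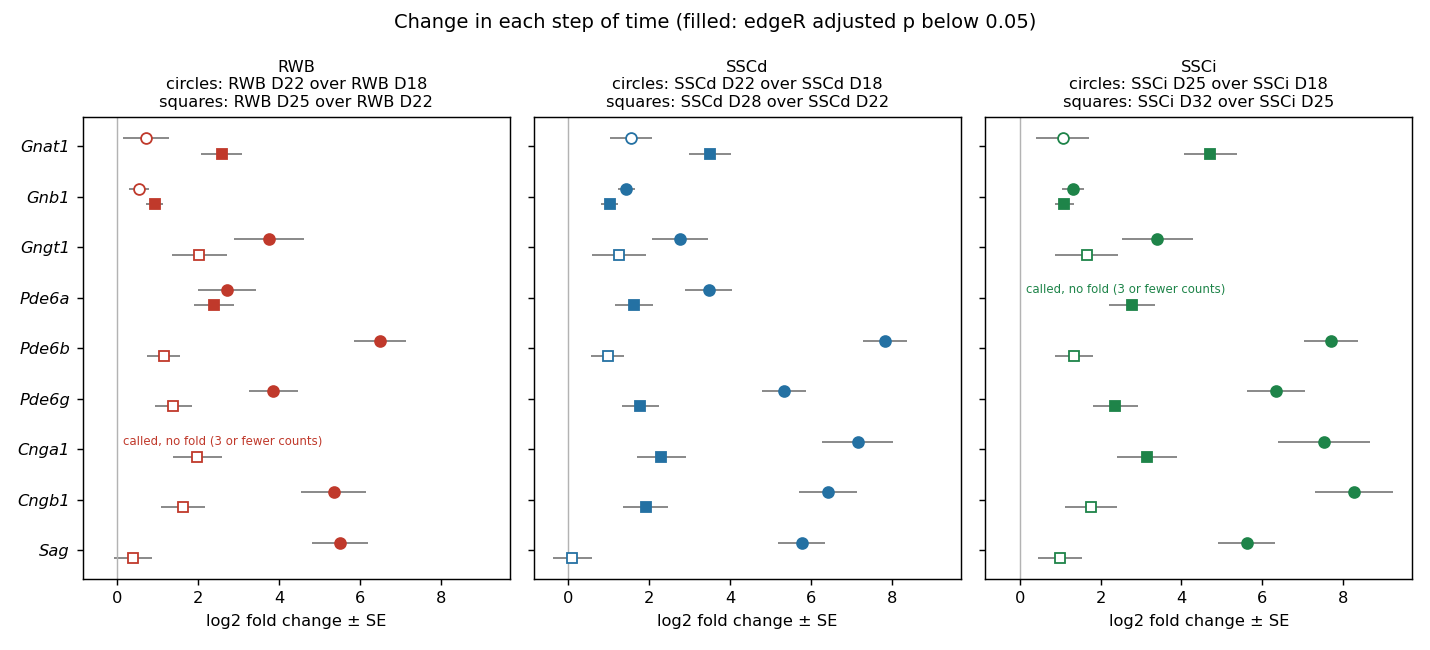
Log2 fold change with its standard error for each gene in the first (circles) and second (squares) step of time in each culture; filled symbols passed the edgeR threshold. Gnat1 has open circles and filled squares in all 3 cultures, and Sag and Pde6b have filled circles and open squares.

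RWB D22 and D25 libraries of the same number deviated together, and with the replicate number as a block edgeR called 7 of 9 rather than 3 for that step, adding Gngt1 (1.84, adjusted p = 0.0084), Pde6g (1.44, adjusted p = 0.0383), Cnga1 (2.05, adjusted p = 0.009) and Cngb1 (1.72, adjusted p = 0.0199). The pairing also held for SSCd D22 and D28, where the block added Gngt1 (1.42, adjusted p = 0.0285). The block was fitted over all 24 libraries, also in groups where the pairing did not hold. It is therefore not a paired test of these groups alone. For RWB D25 against D22, 164 to 1405 of all genes were called over the alternatives. The share of all genes called with the block is not given here. The SSCd count of 6 fell to 2, Gnat1 and Gnb1, when D22 replicate 2, D22 replicate 3, D28 replicate 1 or D28 replicate 2 was left out. The calls then lost were those of Pde6a, Pde6g, Cnga1 and Cngb1, whose D22 and D28 libraries overlapped. When only these groups entered the fit the count was 1. In SSCi the count of 5 for D25 to D32 was 3 without D25 replicate 1 and 1, Gnat1, without D25 replicate 2. Left out, the 4 libraries of high mitochondrial share changed none of the counts of 7, 3 and 8 in RWB and SSCd and moved that of SSCd D22 to D28 to 7, and without SSCi D18 replicate 1 the count of 8 was 7.

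How far each gene had come by the middle day is given here as a percentage of the last day in the same culture. Sag was furthest along, at 76.0% of its last-day mean in RWB (libraries 49.6% to 107%), 93.3% in SSCd (28.4% to 161%) and 49.8% in SSCi (43.2% to 56.5%). Gnb1 (52.6%, 49.2% and 46.4% in RWB, SSCd and SSCi), which was already present at D18, and Pde6b (45.2%, 51.1% and 39.5%) came next. Gnat1 was last, at 16.7% (10.3% to 20.3%) in RWB, 8.9% (5.4% to 13.5%) in SSCd and 3.8% (3.6% to 4.0%) in SSCi. In RWB the next gene up, Pde6a, at 19.0% (12.4% to 24%), overlapped Gnat1, and in SSCd the next, Cnga1, at 20.3% (6.6% to 36.2%), did so too. In SSCi the next, Cnga1, at 11.3% (6.7% to 15.8%), did not.

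Between those ends were Pde6g (38.4%, 29.2% and 19.3%), Cngb1 (32.4%, 26.5% and 29.3%) and Gngt1 (24.4%, 41.9% and 31.7%). Neighbours among these overlapped in RWB and SSCd, and in SSCi Cngb1 (28.7% to 29.9%) lay inside the range of Gngt1 (23.5% to 39.8%) and above that of Pde6g (17.1% to 21.5%). Pde6a stood at 32.7% in SSCd and 14.7% in SSCi. The place of the pair of catalytic subunits therefore differed, with Pde6b ahead of Pde6a in all 3 cultures and with no overlap of their library ranges in RWB (33.7% to 64.8% against 12.4% to 24%) and SSCi (35.7% to 43.3% against 9.6% to 19.7%).

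On the scale of each gene's highest mean over the 9 groups, with onset set at 10%, Gnb1 alone was at or above onset at D18. By D22 5 of 9 genes had reached onset in RWB and 7 in SSCd, and by D25 8 had in SSCi. All 9 had on the last day of each culture. The 4 below onset at RWB D22 were Cnga1 (8.46%), Pde6b (8.2%), Gnat1 (5.34%) and Pde6a (4.32%), and the 2 below it at SSCd D22 were Pde6a (8.69%) and Gnat1 (7.19%). With the line at 25% the middle-day counts were 2, 4 and 5. Sag passed 50% already at D22 in RWB (72.5%) and SSCd (93.3%).

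**Figure D3:**
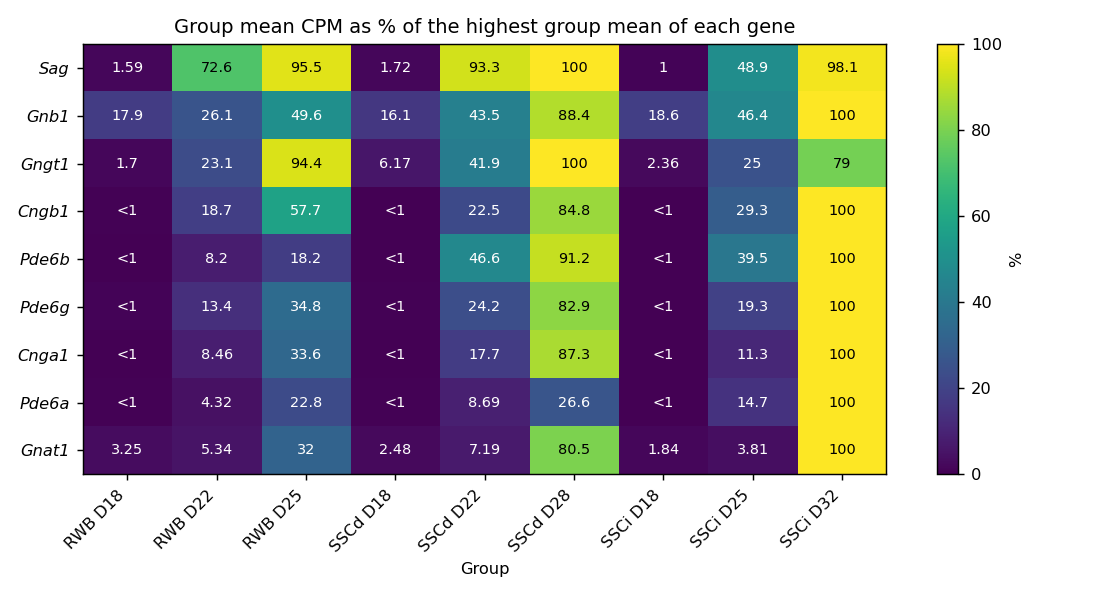
Group mean CPM of each gene (rows) in each of the 9 groups (columns) as a percentage of its highest group mean, on a linear color scale from 0 to 100%. Sag is bright from the middle day on, Gnat1 is dark until the last day, and in RWB D25 Pde6b (18.2%) and Pde6a (22.8%) remain the darkest rows.

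Values of RWB were set beside those of SSCd at the days both share. At D18 none of the 9 differed between RWB and SSCd by edgeR (median -0.11; 0.488% of all genes called in either direction). For the 9, 1 had an unadjusted p under 0.05, as had 1478 of the 16792 genes tested, and DESeq2 called none of the 9. Of RWB against SSCi at D18 edgeR called none (5.23% of all genes), with 3 at an unadjusted p under 0.05 (2804 of 16792 genes). DESeq2 called 2, Pde6g (1.96, adjusted p = 0.0152) and Cngb1 (2.30, adjusted p = 0.0336). The share of all genes that DESeq2 called is not given here. Of SSCd against SSCi at D18 edgeR called none (3.86% of all genes), 2 had an unadjusted p under 0.05 (2049 of 16792 genes) and DESeq2 called none.

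At D22 Pde6b was lower in RWB, at 97.7 ± 37.0 CPM (SD, n = 3) against 555 ± 202 in SSCd (n = 3). The log2 fold change was -2.50 (SE 0.42, edgeR adjusted p = 0.00375). It was the 1 gene of the 9 called lower (1.49% of all genes were). All 9 log2 fold changes were negative (median -0.86; all genes 0.00), from -0.27 for Cngb1 to -2.50, but 2 of the 9 had libraries that did not overlap, Pde6b and Gnb1 (-0.74, SE 0.21, adjusted p = 0.0848). In SSCd D22 replicate 1 each of the 9 was at its highest of that group, and without that library 6 of 9 were negative, as they were without the 4 libraries of high mitochondrial share. Pde6b kept its call whichever of the 6 libraries was left out (-2.86 to -2.19), and without all 4 it was -1.99 (adjusted p = 0.0873). DESeq2 and the fit without SSCd D22 replicate 3 called Gnb1 as well (-0.73, adjusted p = 0.0149, and -0.93, adjusted p = 0.0234).

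The change from D18 to D22 itself was called different between RWB and SSCd for none of the 9 (0.0% of all genes called by edgeR). At an unadjusted p under 0.05 there were 525 genes, 1 of them among the 9, and DESeq2 called 12 genes, none of them among the 9. The differences in change were negative for 7 of the 9, with a median of -0.82. The change from D18 to D25 was called different between RWB and SSCi for none of the 9 (median 0.15), against 2.88% of all genes. An unadjusted p under 0.05 was found for 3008 of the 16792 genes tested and for 2 of the 9. DESeq2 called none of the 9.

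At D25 Gnat1 was higher in RWB than in SSCi, at 36.3 ± 10.3 CPM (SD, n = 3) against 4.32 ± 0.27 (n = 2). The log2 fold change was 3.07 (SE 0.61, edgeR adjusted p = 0.00431). It was the 1 gene of 9 called higher (3.6% of all genes were), and 8 of 9 log2 fold changes were positive (median 0.97; all genes 0.04). Pde6b was the exception, at 216 ± 56.9 CPM against 471 ± 64.0 (-1.12, SE 0.44, adjusted p = 0.112), with libraries that did not overlap. The Gnat1 call was lost without SSCi D25 replicate 1 (3.08, adjusted p = 0.0537) or replicate 2 (3.01, adjusted p = 0.0945). Rotation, dissection and medium all differ between these groups and cannot be told apart.

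The last days sampled differ between cultures, so those values mix culture with age. RWB D25 stood below SSCd D28 for 9 of 9 genes (median -0.83; all genes 0.00), and 2 were called lower (1.95% of all genes were): Pde6b (-2.33, SE 0.42, edgeR adjusted p = 0.00342) and Gnb1 (-0.83, SE 0.21, adjusted p = 0.0364). Pde6b was called whichever single library was left out (-2.62 to -2.06) but not when only these 2 groups entered the fit, which called none of the 9, and Gnb1 lost its call without each of the 3 RWB libraries and without SSCd D28 replicate 1 or 2. Without SSCd D28 replicate 3 Gnat1 was called as well (-1.76, adjusted p = 0.0242). Against SSCi D32, RWB D25 was called lower for 5 of 9 (5.08% of all genes; median -1.52): Pde6b (-2.46, edgeR adjusted p = 0.00122), Pde6a (-2.13, adjusted p = 0.00803), Gnat1 (-1.64, adjusted p = 0.0353), Pde6g (-1.52, adjusted p = 0.0411) and Gnb1 (-1.01, adjusted p = 0.00559). Pde6b, Pde6a and Gnb1 were called in each alternative tried, while the count was 3 without the 4 libraries of high mitochondrial share, and also without RWB D25 replicate 1 or 3 or any SSCi D32 library.

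Sag and Gngt1 lay near the oldest static cultures by RWB D25, with log2 fold changes against SSCi D32 of -0.04 (SE 0.47) and 0.26 (SE 0.65), but Gngt1 rests there on replicate 1, a library of high mitochondrial share. Without it the log2 fold change of Gngt1 was -0.88 (adjusted p = 0.577), and the other RWB D25 libraries, at 434 and 237 CPM, lay below every SSCi D32 library. SSCd D28 and SSCi D32 showed no called difference among the 9 by edgeR (median -0.20), against 0.0834% of all genes. An unadjusted p under 0.05 was found for 954 of the 16792 genes tested and for 1 of the 9. That gene was Pde6a, at 16.4 ± 7.34 CPM (SD, n = 3) in SSCd D28 and 61.7 ± 15.98 in SSCi D32 (n = 3), with no overlap (-1.91, SE 0.47, edgeR adjusted p = 0.182), and DESeq2 called it (-1.92, adjusted p = 0.0133).

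In the first step 4 of 8 cone paralogs were called higher in RWB (Gnb3, Gngt2, Pde6h and Arr3) and 3 in SSCi (Gnb3, Gngt2 and Arr3). Of all genes, 6.01% were called higher in that step in RWB and 8.89% in SSCi. In SSCd Gnb3 was called higher and Gnat2, Cnga3 and Cngb3 lower, where 7.23% of all genes were called higher and 862 of 16792 lower. Of the 8 paralogs 3 were called higher in RWB than in SSCd at D22 (0.405% of all genes were called higher): Gnat2, the cone alpha transducin (2.73, SE 0.46, edgeR adjusted p = 0.00375), and the cone channel subunits Cnga3 (2.41, adjusted p = 0.0055) and Cngb3 (1.93, adjusted p = 0.0103). Without the 4 libraries of high mitochondrial share Gnat2 (2.88, adjusted p = 0.0278) and Cngb3 (2.04, adjusted p = 0.0278) kept their calls and Cnga3 did not (2.36, adjusted p = 0.0594). At the last days 7 of 8 were higher in RWB D25 than in SSCd D28 (1.11% of all genes), all but Gngt2 (1.76, adjusted p = 0.0522), and 7 of 8 were higher than in SSCi D32 (4.75%), all but Gnb3 (0.59, adjusted p = 0.0841). Without the 4 libraries of high mitochondrial share, Gnat2 (3.35, adjusted p = 0.00172), Cngb3, Arr3 and Pde6h kept their calls against SSCd D28, and Gnb3 (0.75, adjusted p = 0.141), Pde6c (1.83, adjusted p = 0.134) and Cnga3 (1.39, adjusted p = 0.162) did not. Against SSCi D32, Pde6c (1.99, adjusted p = 0.0546), Pde6h (1.70, adjusted p = 0.134) and Cnga3 (1.15, adjusted p = 0.168) lost theirs. The cone marker list (10 genes, 7 of them among these paralogs) summed to 959 to 2016 CPM in RWB D22, 454 to 1304 in SSCd D22, 987 to 2505 in RWB D25, 346 to 486 in SSCd D28 and 281 to 410 in SSCi D32.

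A ratio within a library depends little on how it was scaled. The log2 ratio of each rod gene to its cone counterpart was lower in RWB D22 than in SSCd D22 for all 8 pairs. For Gnat1 over Gnat2 it was -4.51, -4.55 and -4.35 in the RWB libraries and -1.17, -1.82 and -0.91 in the SSCd libraries, a difference of -3.17. The differences were -3.41 for Cnga1 over Cnga3, -2.78 for Pde6b over Pde6c, -2.49 for Pde6g over Pde6h, -1.91 for Cngb1 over Cngb3, -1.33 for Gngt1 over Gngt2 and -1.16 for Gnb1 over Gnb3. In these 7 pairs the libraries did not overlap (two-sided exact permutation p = 0.1, the smallest that 3 against 3 allows, adjusted p = 0.114 over the 8 pairs). The libraries of these groups are paired by number, and a paired permutation gave p = 0.25, the smallest that 3 pairs allow. Sag over Arr3 differed by -0.83 with overlap (exact p = 0.3). Of the 8 differences, the smallest after leaving out any 1 library was -0.55, for Sag over Arr3. Cnga3, Pde6h and Arr3 are low, at 1.17 to 19.2 CPM in these groups.

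**Figure D4:**
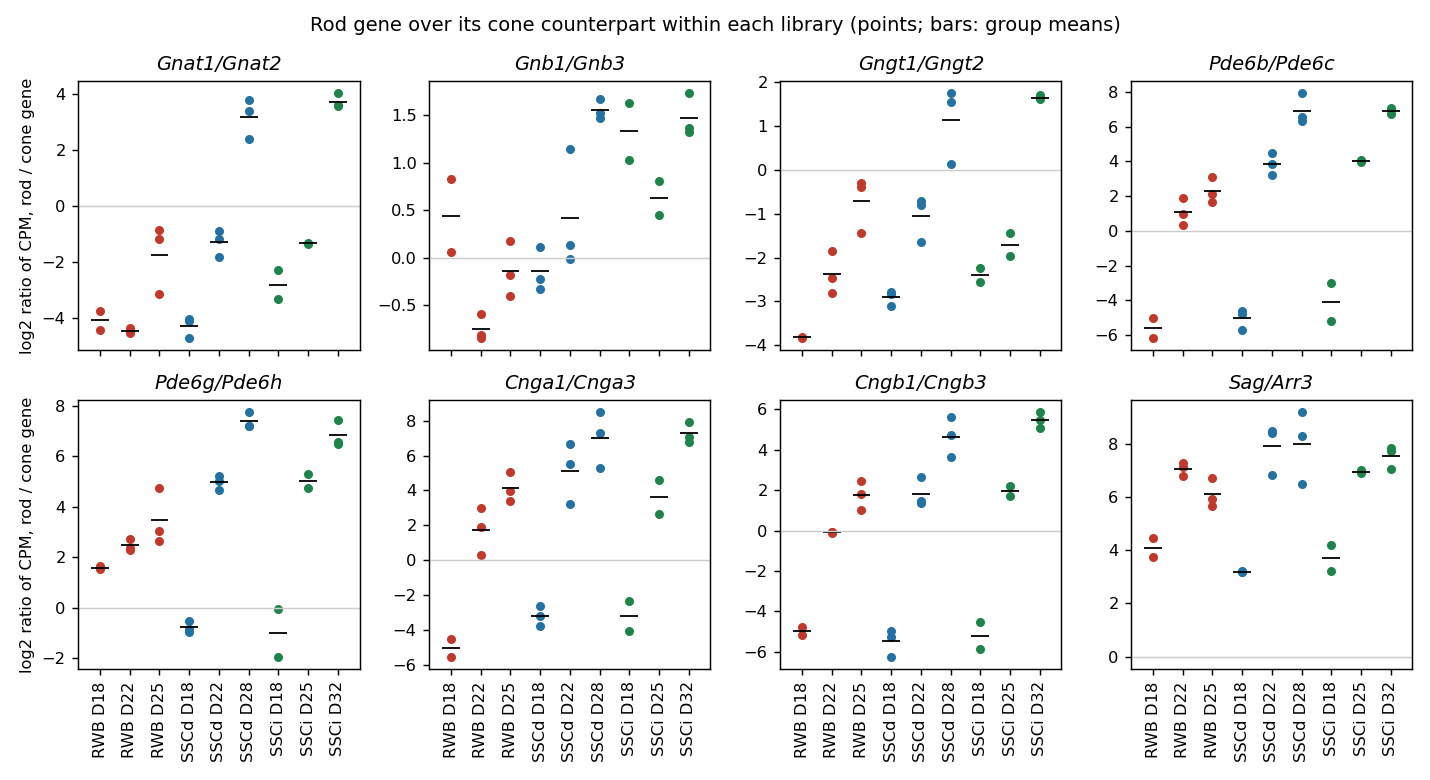
Log2 ratio of the CPM of each rod gene to its cone counterpart in each library (points), with group means as bars, for the 9 groups. The red RWB points lie below the blue SSCd points of D22 without overlap in 7 panels and with overlap for Sag over Arr3.

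Levels of different genes were compared per length, as TPM, a share of all transcripts corrected for their length, computed from the deposited transcript counts. In SSCi D32 Gnb1 was highest at 2320 ± 112 TPM (SD, n = 3), followed by Sag at 1412 ± 183, Pde6g at 1369 ± 254, Gngt1 at 1198 ± 145 and Pde6b at 884 ± 65.2. The libraries of Sag, Pde6g and Gngt1 overlapped. Below them came Cngb1 at 351 ± 62.0, Cnga1 at 265 ± 4.84, Gnat1 at 168 ± 37.2 and Pde6a at 31.2 ± 7.57 TPM. The transducin subunits, which work as a trimer, were thus far apart in transcript level on the last day sampled, and so were the catalytic subunits, which work as a dimer.

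The ratio of Pde6b to Pde6a TPM was 164 ± 34.3 (SD, n = 3) at SSCd D22 and 100 ± 11.9 at D28, 83.4 ± 30.7 (n = 2) at SSCi D25 and 29.2 ± 5.69 (n = 3) at D32, and 54.6 ± 11.6 (n = 3) at RWB D22 and 25.1 ± 9.29 at D25. It was lower on the last day in each culture, without overlap of the libraries. The ratio of Gngt1 to Gnat1 was 50.4 ± 20.2 and then 11.98 ± 2.55 on the same days in SSCd, and 64.9 ± 23.8 and then 7.23 ± 0.85 in SSCi. In RWB it was 39.4 ± 14.3 and then 34.2 ± 41.4, with replicate 1, a library of high mitochondrial share, at 81.9. These ratios were not tested. Cnga1 to Cngb1 was 0.77 ± 0.13 at SSCi D32 and 0.80 ± 0.15 at SSCd D28, and 0.45 ± 0.19 at RWB D25.

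The transcript table shows how much of Gnat1 was the full coding transcript (2328 bases). At D18 it held 0 and 6.6 estimated counts in RWB, 0, 0 and 3.3 in SSCd and 4.7 and 9.1 in SSCi, and most of the counts of the gene lay in 6 shorter or intron-retaining transcripts. At the middle day it held 40.0, 165 and 77.6 counts in RWB D22, 133, 81.0 and 17.9 in SSCd D22, and 16.6 and 40.9 in SSCi D25, where it was 51.4% ± 30.1 (SD, n = 2) of the gene. On the last day it was 94.2% ± 2.53 in RWB, 97.7% ± 0.55 in SSCd and 96.2% ± 1.09 in SSCi (n = 3 each). Counted by this transcript alone, the middle day was 11.6% of the last day in RWB, 3.81% in SSCd and 1.10% in SSCi. These lie below the percentage of every other member, although those are whole-gene values. In RWB the D22 libraries spread from 3.05 to 10.2 CPM for this transcript, against a D25 mean of 51.9 CPM. The deposited gene value of Gnat1 divided by its transcript sum varied 2.08-fold over 16 libraries, and that of Cngb1 1.73-fold over 17. The other 7 genes varied by 1.46-fold or less. Against a sum weighted by transcript length all 9 varied by 1.18-fold or less.

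Cngb1 is known to make short products, the glutamic acid-rich proteins of the rod outer segment, from its 5′ part beside the full channel subunit. Of its 10 transcripts in the table, 7 are confined to the 5′ part and 3 reach further. Not all of these 7 are annotated as coding: among them are targets of nonsense-mediated decay and an intron-retaining transcript. Another, annotated as coding, has 536 bases, of which 94 are coding. The longest coding part among the 7 is 978 bases, in a transcript with 13663 counts over all libraries. The values below are of all 7 together and do not measure the messages of the short proteins alone. The 5′ transcripts carried 64.0% ± 8.76 (SD, n = 3) of the counts in RWB D22, 61.2% ± 5.22 in RWB D25, 61.8% ± 5.996 in SSCd D22 and 56.8% ± 2.39 in SSCd D28, and 53.7% ± 4.11 (n = 2) in SSCi D25 and 47.9% ± 1.34 (n = 3) in SSCi D32. Per length the 7 together, the shortest and the non-coding included, outnumbered the others 4.40 ± 0.22 to 1 in SSCi D32 and 8.31 ± 3.27 to 1 in RWB D25. The ratio was highest of its group in the libraries of high mitochondrial share, at 12.9 in RWB D22 replicate 1, 12.1 in RWB D25 replicate 1 and 9.30 in SSCd D22 replicate 1, and the part of the excess of short transcripts there in the differences between cultures was not tested.

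**Figure D5:**
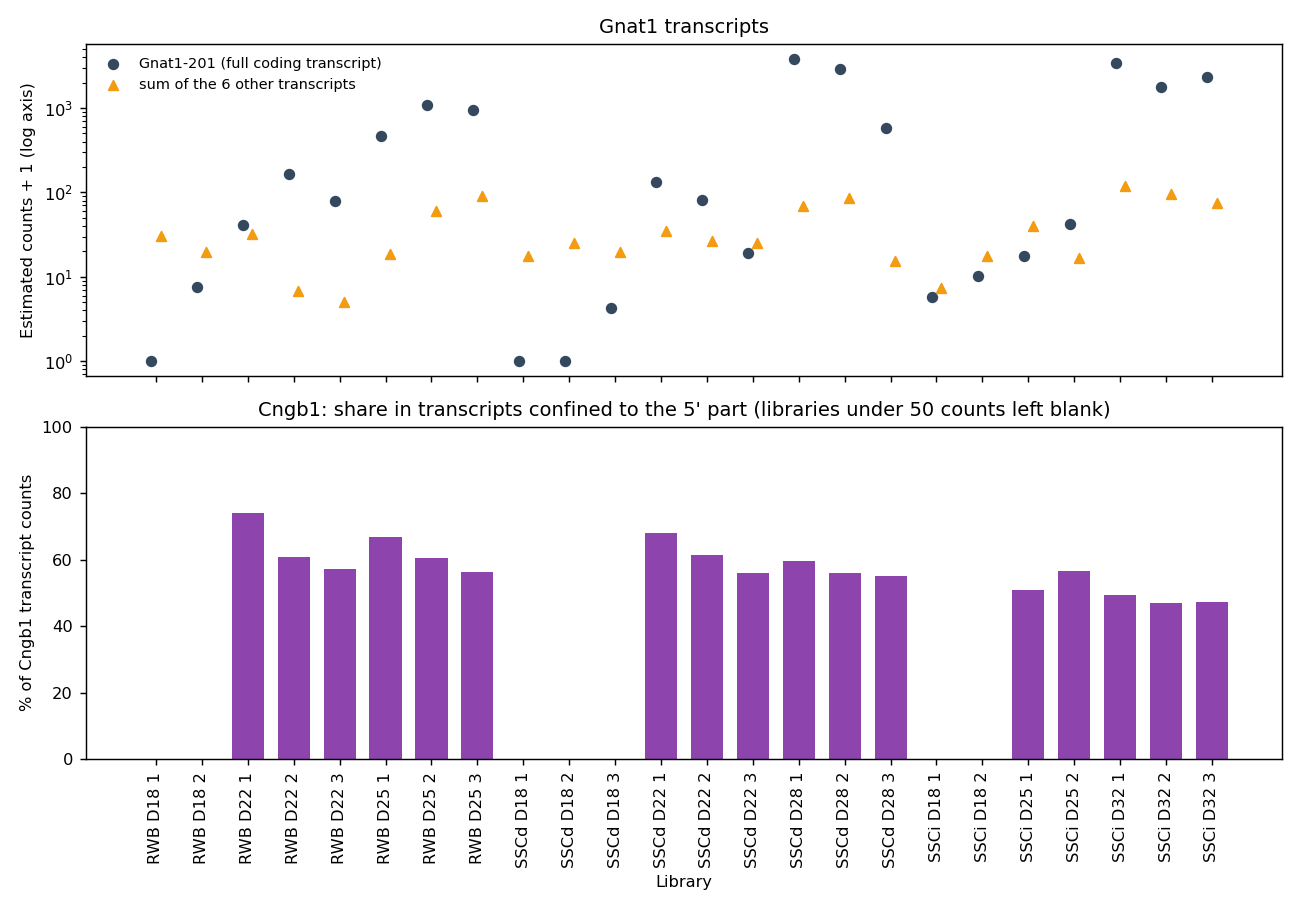
Above, estimated counts of the full coding Gnat1 transcript (dots) and of the 6 other Gnat1 transcripts together (triangles) in each library, on a log axis with 1 added. Below, the percentage of Cngb1 transcript counts in transcripts confined to the 5′ part, with D18 libraries blank for want of counts; dots overtake triangles between the first and the last day, and the bars are lowest in SSCi D32.

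Other members showed smaller shifts. The main coding transcript of Sag was 71.7% to 76.4% of Sag counts at D18 as a group mean and 92.3% to 95.3% later. Gnb1-209, a coding transcript of 1058 bases, was 3.73% to 4.56% of Gnb1 at D18 and 18.1% to 22.2% on the last days. The main coding transcript of Pde6b held 81.3% to 86.6% of Pde6b in every group from the middle day on. Estimates for transcripts that share exons are uncertain.

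Genes that shut the cascade off, feed calcium back to it or assemble it were read from a list of 14, all of which were tested. Of these 11 rose from D18 to D22 in RWB and 6 from D22 to D25 (6.01% and 1.97% of all genes were called higher), 11 and then 7 in SSCd (7.23% and 3.0%), and 10 and then 9 in SSCi (8.89% and 3.72%). None was called lower. Rcvrn, the calcium sensor recoverin, rose in the first step by 6.19 (edgeR adjusted p = 0.00171) in RWB, 7.04 (adjusted p = 5.53e-05) in SSCd and 5.40 (adjusted p = 0.00239) in SSCi, and Pdc, phosducin, which binds transducin beta-gamma, by 4.0, 3.48 and 3.51. Pde6d, a prenyl-binding chaperone, was called in no first step (0.96, 0.81 and 0.84).

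Between RWB and SSCd at D22, 3 of the 14 were called lower in RWB and 1 higher (1.49% and 0.405% of all genes were). Slc24a1, the rod exchanger that carries calcium out of the outer segment, was at 4.11, 3.20 and 3.74 CPM in RWB and at 49.8, 27.9 and 15.9 in SSCd (-3.08, SE 0.41, edgeR adjusted p = 0.000658). Gucy2e, a guanylate cyclase that restores cyclic GMP (-2.82, SE 0.32, adjusted p = 0.000316), and Rgs9bp, the anchor of the complex that turns transducin off (-1.38, SE 0.35, adjusted p = 0.0486), were lower too. Guca1a, a guanylate cyclase activator used by rods and cones, was higher, at 16.5, 33.6 and 13.5 CPM in RWB against 5.44, 3.33 and 2.16 in SSCd (2.54, SE 0.53, adjusted p = 0.0129). Without the 4 libraries of high mitochondrial share Slc24a1 (-2.63, adjusted p = 0.0134) and Gucy2e (-2.45, adjusted p = 0.00697) kept their calls, while Rgs9bp (-0.80, adjusted p = 0.467) and Guca1a (3.12, adjusted p = 0.0522) did not. Gucy2e was already lower in RWB at D18, at 3.12 and 2.23 CPM against 16.3, 14.3 and 24.3 in SSCd. At D18 edgeR called 1 of the 14 lower in RWB than in SSCd (0.488% of all genes called in either direction). On the same day, RWB D25 was called higher than SSCi D25 for 6 of the 14 and lower for 1 (median log2 fold change 1.41). Of the 16792 genes tested, 605 were called higher and 853 lower there. Against SSCi D32, which is older, RWB D25 was lower for 6 of the 14, among them Slc24a1 (-3.90) and Grk1, the pigment kinase (-2.23). RWB D25 was higher for Guca1a (3.15). Of all genes 5.08% were called lower and 4.75% higher against SSCi D32. Guca1a was also the 1 gene of the 14 whose change from D18 to D25 differed between RWB and SSCi (7.18, SE 1.14, edgeR adjusted p = 0.00433). Of all genes 2.88% were called in either direction. At D18 Guca1a held 5 and 0 counts in RWB and 14 and 12 in SSCi, so the size of that difference rests on few counts.

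Within groups the 9 genes often moved together from library to library. In SSCd D22 replicate 1 was highest and replicate 3 lowest for all 9, in SSCd D28 replicate 3 was lowest for all 9, and in SSCi D32 replicate 2 was. The rod markers outside the cascade moved with them in SSCd D28, summing to 8923, 5939 and 3200 CPM in replicates 1, 2 and 3. RWB D25 was otherwise: there replicate 1 was highest for Gngt1, Cnga1 and Cngb1 and lowest for Gnat1, Pde6a, Pde6b and Pde6g.

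Across the 24 libraries, which share culture, day and depth, the 10 genes most like the mean of the 9 by Pearson r of log2 CPM included Lrit1 (0.994), Snrk (0.992), Klhl18 (0.989), Rp1 (0.989), Rdh12 (0.988), Rcvrn (0.986), Ankrd33 (0.986) and Fabp12 (0.985). Among the 9, Pde6g and Cnga1 were closest to that mean (0.991 each, with their own values part of it) and Gnat1 furthest (0.877). The lowest r between any pair was 0.721, of Gnat1 and Sag, the least and the furthest along by the middle day. The highest was 0.988, of Pde6g and Cngb1. Gnat1's most like gene was Ric8b (0.936), and Pde6b's was Nr2e3 (0.982), a nuclear receptor of rods.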

How the data were processed

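RNA was sequenced from 24 libraries in 9 groups of culture and day. The deposited gene and transcript values are estimated counts that the authors made with kallisto 0.42.5, and the submitters' processing notes also name edgeR 3.13.9, limma 3.32.2 and the build GRCm38.p5. Not given in the sources used here are the annotation release, the step from transcripts to genes and the strand setting of the counting. Of the deposited gene values 42.1% are whole numbers, and all were rounded. Genes were tested with edgeR 4.0.16 (R 4.3.3): TMM factors, the default filter on low counts, a robust quasi-likelihood fit of the 9 group means to all 24 libraries, and Benjamini-Hochberg adjustment over 16792 genes with a threshold of 0.05. Log2 CPM use a prior count of 2. No fold is given where a group holds 3 or fewer counts. TPM were computed from the deposited transcript counts and GENCODE M21 lengths. Transcript shares leave out libraries with under 50 counts for the gene.

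Alternatives were DESeq2 1.42.0, other size factors, no filter, only the groups compared, the replicate number as a block, each library left out in turn and the 4 libraries of high mitochondrial share left out. Sums of transcript counts and a crossed pairing were added after seeing the data. Scripts were tested on simulated data. Libraries sharing a number were taken as paired where all 3 correlations of their deviations from the group means passed 0.1. That held for RWB D22 with RWB D25 (0.202 to 0.493), RWB D22 with SSCd D22 (0.203 to 0.431), SSCd D18 with D22 (0.123 to 0.41), SSCd D22 with D28 (0.197 to 0.401), RWB D22 with SSCd D18 (0.21 to 0.341), RWB D25 with SSCd D18 (0.217 to 0.557) and RWB D25 with SSCd D22 (0.141 to 0.495). P-values measure the spread between the deposited replicates. The 9 genes and the other lists were chosen with earlier results of these data known. Genes named are the members, their cone counterparts, the 14 genes of the second list, and, by Pearson r of log2 CPM among genes whose mean log2 CPM reached 3, the 10 most like the mean of the members and the most like gene of each member. Of those 10 genes, 2 are not reported here.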

Additional observations from a re-analysis of the deposited data

How the results depend on the processing

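Counts are of the 9 genes called. The shares of all genes given above are of the main fit and are not the background of the counts here. For RWB D25 against D22 the count over all genes was 873 in the main fit and 164 to 1405 over the alternatives. With the replicate block edgeR called 7 for RWB D25 against D22, 8 for SSCi D32 against D25, 1 for RWB against SSCd at D18, 3 at D25 in RWB against SSCi, and 1 for the difference in change from D18 to D25 between RWB and SSCi. The block moved no other count of the 9 by over 1.5 times. DESeq2 called 8 for RWB D25 against D22, 2 for RWB against SSCd at D22, 2 for RWB against SSCi at D18 and 1 for SSCd D28 against SSCi D32. With only the groups compared in the fit, 1 was called for SSCd D28 against D22, 9 for SSCi D32 against D25, and none (0) in RWB D25 against SSCd D28. Without the filter, 3 were called for SSCd D28 against D22 and 3 for RWB D25 against SSCi D32. Without the 4 libraries of high mitochondrial share, 0 were called for RWB against SSCd at D22 and 3 for RWB D25 against SSCi D32. Sums of transcript counts gave 1 in RWB D25 against SSCd D28. With onset at 25%, 0, 2, 0, 4, 0 and 5 genes had reached it at RWB D18, RWB D22, SSCd D18, SSCd D22, SSCi D18 and SSCi D25. The cause of these shifts was not tested.

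Leaving out 1 library at a time gave 5 to 7 for RWB D22 against D18, 2 to 3 for RWB D25 against D22, 7 to 9 for SSCd D22 against D18, 2 to 6 for SSCd D28 against D22, 7 to 8 for SSCi D25 against D18 and 1 to 5 for SSCi D32 against D25. Between cultures it gave 1 to 2 for RWB against SSCd at D22, 0 to 1 at D25 in RWB against SSCi, 1 to 3 in RWB D25 against SSCd D28 and 3 to 4 for RWB D25 against SSCi D32. A group of 2 is then left with 1 library, which is assumed to vary like the others.

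Numbers of RWB D18 and SSCi D18 deviated in opposite directions (-0.189), and the crossed pairing called 0 of the 9 and 0 of all genes. Counts over all genes moved further: over the alternatives 318 genes for RWB against SSCd at D22 became 98 to 653, 1351 for SSCd D28 against D22 became 643 to 1951, and 1458 for RWB against SSCi at D25 became 90 to 3348. Groups of 2 or 3 libraries and the few counts at D18 limit what these tests can show.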
